A study of Mus musculus with 4 samples.

Results

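The proteasome subunit genes were taken as the protein-coding genes with the mouse symbols *Psma*, *Psmb*, *Psmc* or *Psmd* followed by a number, without the immune subunits *Psmb8* and *Psmb9*. The rule found 37 genes among the 20722 protein-coding genes of the deposited table, and all 37 annotated genes that meet it were present. RNA-seq of total RNA had been made from mouse embryonic fibroblasts (MEF) of C57BL/6 embryos at embryonic day 15.5, isolated from the body without head, limbs, tail, viscera, liver and heart and, by the study's methods, immortalized with SV40. The 4 groups of 1 library each were *Hmga2*+/+ Ctrl, *Hmga2*+/+ TGFB1, *Hmga2*-/- Ctrl and *Hmga2*-/- TGFB1, where HMGA2 is a chromatin protein, *Hmga2*-/- cells lack its gene, and TGFB1 is a cytokine that activates fibroblasts. All cells were starved in medium with little serum and then received 10 ng/ml human recombinant TGFB1 or, as Ctrl, water for 24 h. The titles name the genotype *Hmga2*-/-, which the genotype field of the same samples writes Hmga-/-. How many embryos or lines stand behind a genotype is not given in the sources used here, so a difference between genotypes cannot be told apart from a difference between cell lines. With 1 library per condition no difference had a replicate check, no p-value was computed, and each fold below compares 2 libraries.

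The 26S proteasome degrades proteins tagged with ubiquitin. Its 20S core is a barrel of stacked rings, in which alpha subunits (*Psma*) form the gate and beta subunits (*Psmb*) hold the proteolytic sites inside. The 19S regulatory particle caps the barrel with a base, whose ATPases (*Psmc*) unfold the substrate, and a lid (*Psmd*), which removes the ubiquitin chain. In cells exposed to interferon the catalytic subunits PSMB5, PSMB6 and PSMB7 are replaced by PSMB8, PSMB9 and PSMB10, and the transcription factor NFE2L1 is known to raise the transcription of subunit genes when proteasome activity is short.

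The letters around the starts of the members were examined as a description. Of the 37 members, 30 had a window of 250 bases before to 50 after the start in the RefSeq promoter table (GRCm38.p6). TGACNNNGC, the core of the antioxidant response element bound by NFE2L1 and NFE2L2, was found on either strand in 5 of 30 member windows (16.7%) and in 14.9% of the 8471 windows of protein-coding genes with at least 1 RPKM (reads scaled by the length of the transcript and the mapped reads of the library) in at least 1 library. CCAAT, the letters bound by NF-Y, was found on either strand in 12 of 30 member windows (40.0%) and in 39.4% of the same 8471 windows. Of the 29 windows of members with at least 1 RPKM, 5 (17.2%) held TGACNNNGC and 11 (37.9%) held CCAAT. These letters were thus about as frequent at the members as at other genes, and a match describes the letters, not a bound site. The 250 bases before the start are shown for *Psmd14* and *Psmc6*, which were at least 1.5-fold higher under TGFB1 in at least 1 genotype, and for *Psmb10*, which was at least 1.5-fold lower. They are also shown for the constitutive catalytic subunit genes *Psmb5* and *Psmb6*, whose windows hold TGACNNNGC. The third such gene, *Psmb7*, had no window and was not examined. Capitals mark matches on either strand. Counted from -1 as the last base before the start, they begin at -159 in *Psmd14* (the reverse complement of CCAAT, with further matches just after the start), at -47 in *Psmb5* and -9 in *Psmb6* (TGACNNNGC) and at -227 in *Psmc6* (its reverse complement). The *Psmb10* window held no match.
Psmd14 (chr2:61711444-61711693, plus strand): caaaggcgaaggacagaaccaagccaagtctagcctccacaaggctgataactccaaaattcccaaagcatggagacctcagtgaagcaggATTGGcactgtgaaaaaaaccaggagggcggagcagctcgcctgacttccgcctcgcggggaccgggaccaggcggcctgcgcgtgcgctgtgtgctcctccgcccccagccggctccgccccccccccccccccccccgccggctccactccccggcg
Psmc6 (chr14:45329574-45329823, plus strand): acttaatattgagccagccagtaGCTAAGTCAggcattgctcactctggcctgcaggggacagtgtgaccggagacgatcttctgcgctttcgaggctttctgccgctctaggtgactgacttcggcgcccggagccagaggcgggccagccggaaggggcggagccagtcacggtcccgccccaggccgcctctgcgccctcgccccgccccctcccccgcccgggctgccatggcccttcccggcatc
Psmb10 (chr8:105938393-105938642, minus strand): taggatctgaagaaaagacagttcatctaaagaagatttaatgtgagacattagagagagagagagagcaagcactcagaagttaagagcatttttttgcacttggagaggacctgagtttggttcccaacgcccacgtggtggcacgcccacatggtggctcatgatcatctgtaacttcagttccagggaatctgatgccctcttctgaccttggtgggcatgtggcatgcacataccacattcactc
Psmb5 (chr14:54617996-54618245, minus strand): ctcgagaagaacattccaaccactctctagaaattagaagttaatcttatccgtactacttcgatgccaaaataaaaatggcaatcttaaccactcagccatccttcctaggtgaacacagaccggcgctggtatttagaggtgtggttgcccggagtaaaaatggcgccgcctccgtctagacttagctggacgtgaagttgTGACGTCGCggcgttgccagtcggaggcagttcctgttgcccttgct
Psmb6 (chr11:70525107-70525356, plus strand): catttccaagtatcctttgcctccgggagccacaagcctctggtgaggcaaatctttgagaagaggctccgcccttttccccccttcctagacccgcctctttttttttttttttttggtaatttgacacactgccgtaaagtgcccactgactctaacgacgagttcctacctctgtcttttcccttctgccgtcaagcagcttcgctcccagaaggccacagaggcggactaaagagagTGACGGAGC

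The libraries had between 56140000 and 57300000 mapped reads, derived from the steps in which low RPKM values increase. *Hmga2* had 14.8 RPKM in the *Hmga2*+/+ Ctrl library and 0 reads in the *Hmga2*-/- Ctrl library, at least 1191-fold lower against a floor of 3 reads. *Ccn2*, a TGFB1 target, stood at 13.2 and 172.7 RPKM in *Hmga2*+/+ Ctrl and TGFB1 and at 24.9 and 358.9 RPKM in *Hmga2*-/- Ctrl and TGFB1. All 9 fibroblast markers reached 1 RPKM in at least 1 library, and *Dcn* and *Lum* were low, with at most 8.46 and 1.08 RPKM. Of the markers of other cells, 0 of 4 epithelial, 2 of 4 endothelial (*Kdr*, *Tek*), 1 of 4 blood cell (*Cd68*), 0 of 4 muscle and 1 of 4 nerve and glia markers (*Tubb3*) reached 1 RPKM. Summed over each of these lists the levels lay between 0.006 RPKM, for muscle markers, and 8.14 RPKM, for endothelial markers, and *Cd3e*, *Myod1* and *Myog* were at 0 in all 4 libraries. The endothelial sum was 3.89 and 4.86 RPKM in *Hmga2*+/+ and 7.12 and 8.14 RPKM in *Hmga2*-/- Ctrl and TGFB1. Single markers also differed between Ctrl and TGFB1. *Kdr* was higher under TGFB1 (1.11 and 4.46 RPKM in *Hmga2*+/+, 1.46 and 7.39 in *Hmga2*-/- Ctrl and TGFB1), as was *Tubb3* (0.913 and 2.81, 0.957 and 4.37). *Tek* was lower (2.75 and 0.33, 5.65 and 0.686), as were the fibroblast markers *Pdgfra* (24.4 and 11.2, 27.1 and 15.3) and *Dcn* (7.20 and 2.68, 8.46 and 2.07). Other fibroblast markers were higher, among them *Thy1* (5.31 and 8.54, 4.11 and 8.88) and *Pdgfrb* (36.1 and 48.3, 31.5 and 49.9). The fibroblast list thus moved in both directions. The part of these markers in the results was not tested.

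Of the 37 members, 35 had at least 1 RPKM in at least 1 library, as had 10684 protein-coding genes in all. The members were abundant transcripts: 30 of them had at least 10 RPKM in all 4 libraries, and the median member, averaged over the libraries, had 28.6 RPKM, above 87.8% of the 10684 genes. The 35 members rested on 131 to 9957 reads per library. They lay on 16 chromosomes. The 31 members that encode subunits of the constitutive 26S proteasome were summed, without subunits of other names such as *Adrm1*. Their summed level was 905.1 RPKM in *Hmga2*+/+ Ctrl, 1141.5 in *Hmga2*+/+ TGFB1, 970.6 in *Hmga2*-/- Ctrl and 1192.4 in *Hmga2*-/- TGFB1. Both TGFB1 libraries thus stood above both Ctrl libraries in this sum, while the sum over all 10684 genes was also higher under TGFB1, at 176037.2 against 162963.6 RPKM in *Hmga2*+/+ and 186929.5 against 167643.5 RPKM in *Hmga2*-/- MEF.

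**Figure D1:**
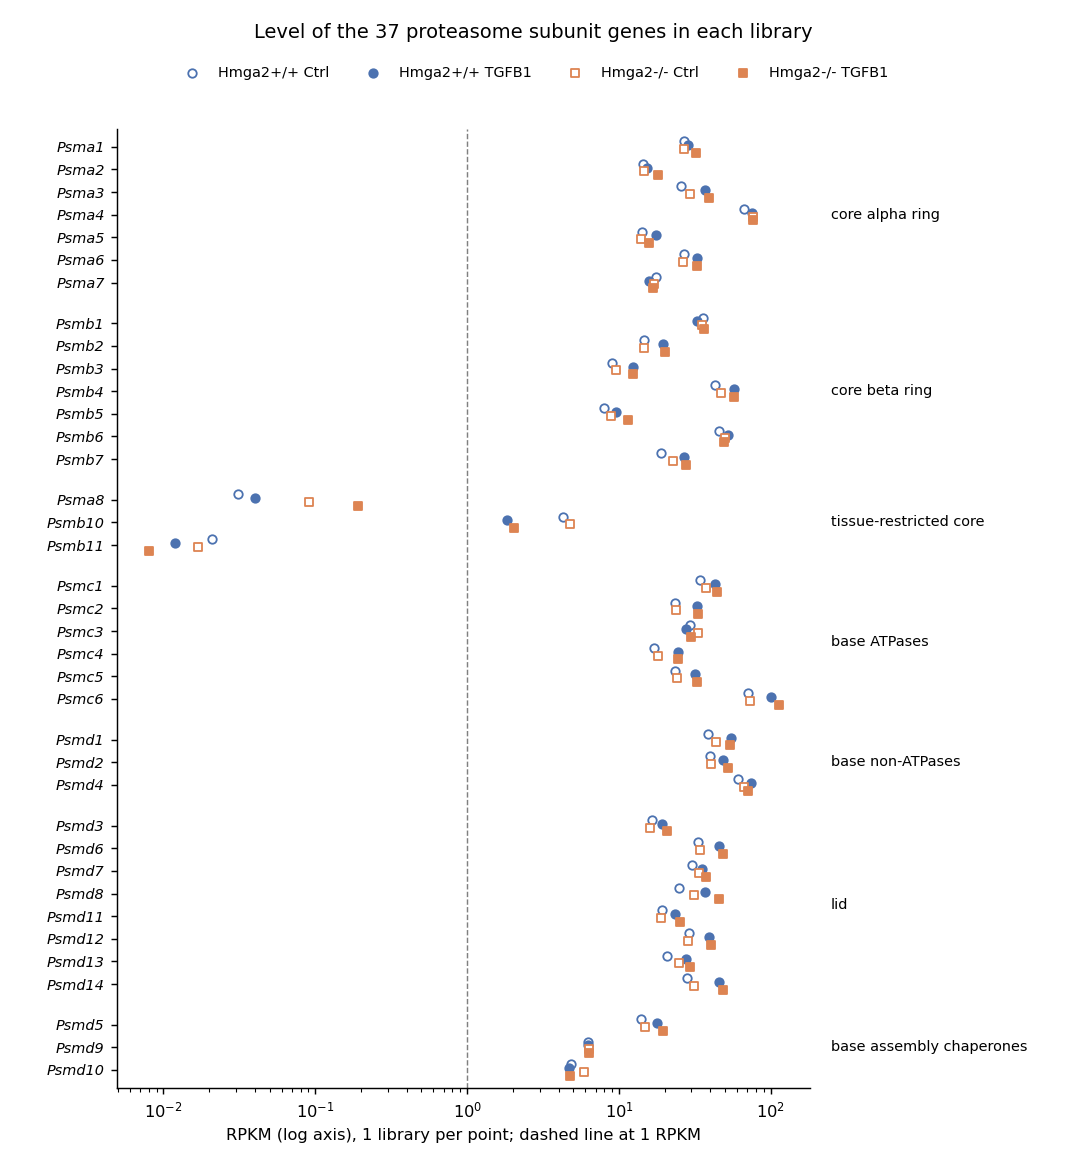
RPKM of the 37 members in the 4 libraries on a log axis, grouped by their place in the particle, with 1 point per library and a dashed line at 1 RPKM. Most members lie between 10 and 100 RPKM, and *Psma8* and *Psmb11* lie below 1 RPKM in every library.

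The first comparison asked how subunit genes stood in TGFB1 against Ctrl. In *Hmga2*+/+ MEF 29 of 35 members were higher under TGFB1, beside 46.1% of all genes tested, and 22 of 35 were higher by at least 1.2-fold, beside 26.1% of all genes. In *Hmga2*-/- MEF 29 of 35 were higher, beside 51.1% of all genes, and 22 were higher by at least 1.2-fold, beside 29.6%. The median log2 change of the members was 0.31 (1.24-fold) for *Hmga2*+/+ and 0.30 (1.23-fold) for *Hmga2*-/- MEF, whereas the median of all genes was -0.04 and 0.01. The increase was small for each gene. Past the limit of 1.5-fold used by the study were 1 member upwards (11.5% of all genes) and 1 downwards (16.6% of all genes) in *Hmga2*+/+ MEF, and 2 upwards (13.1%) and 1 downwards (15.1%) in *Hmga2*-/- MEF. Lower by at least 1.2-fold were 1 member in *Hmga2*+/+ MEF, beside 33.0% of all genes, and 2 members in *Hmga2*-/- MEF, beside 29.5%. The genotypes were measured in separate libraries, and 27 members were above Ctrl in both, 19 of them by at least 1.2-fold in both, while 4 were below Ctrl in both. The shares of all genes that met these conditions in both genotypes were not counted. The joint counts therefore do not set the members apart from other genes.

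**Figure D2:**
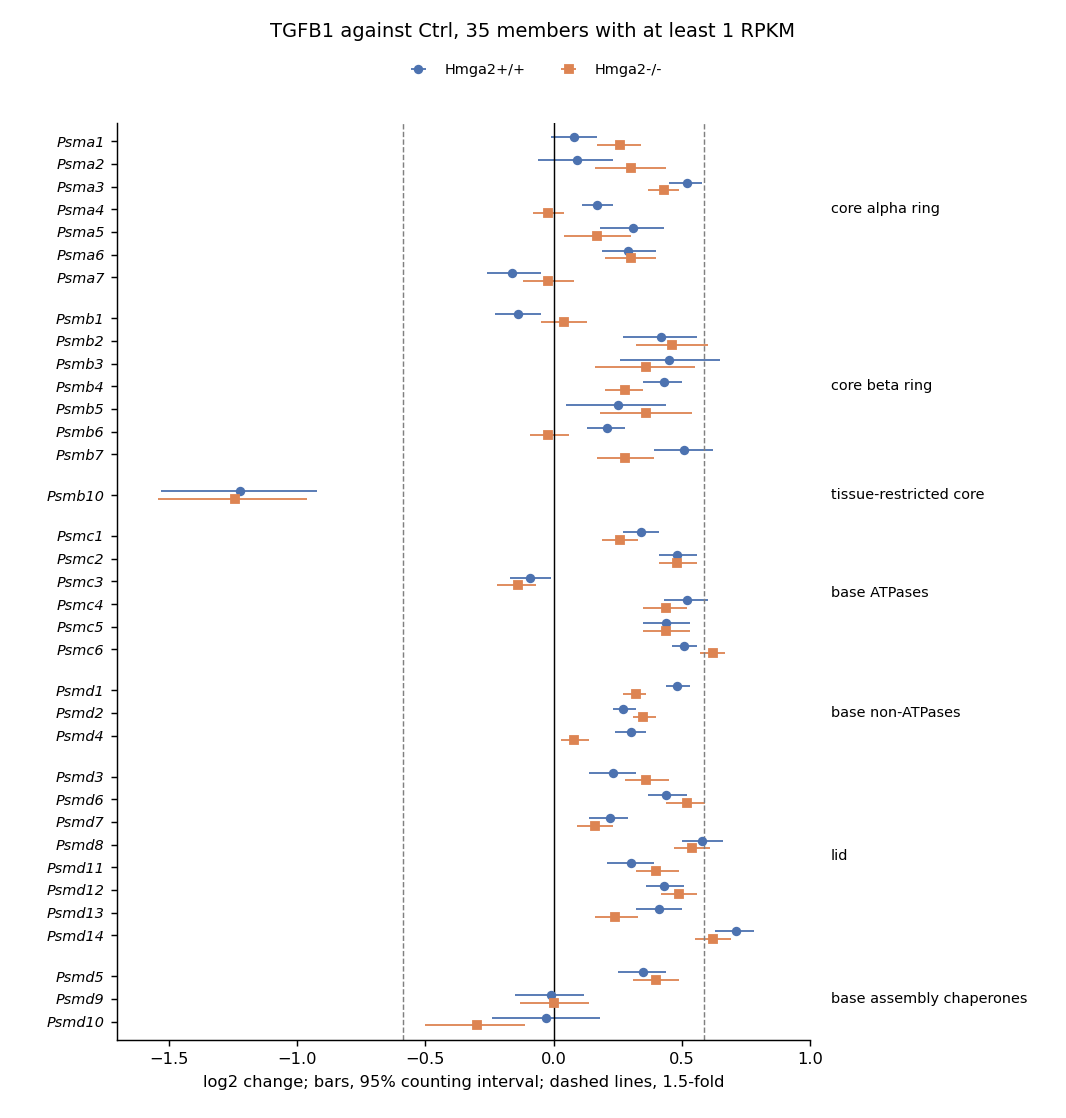
Log2 change under TGFB1 of the 35 members with at least 1 RPKM, in *Hmga2*+/+ (circles) and *Hmga2*-/- MEF (squares), with exact 95% intervals for counting error and dashed lines at 1.5-fold. Most points lie between 0 and the upper dashed line in both genotypes, and *Psmb10* lies at -1.22 and -1.24.

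Members of the alpha ring, the gate of the core, had median log2 changes of 0.17 and 0.26 in *Hmga2*+/+ and *Hmga2*-/- MEF. None of the 7 passed 1.5-fold, and 3 were higher by at least 1.2-fold in each genotype. Of all genes, 11.5% and 13.1% were higher by at least 1.5-fold and 26.1% and 29.6% by at least 1.2-fold. With 7 genes these counts do not set the ring apart. The same shares of all genes stand beside the TGFB1 counts of the structural groups below. The highest was *Psma4*, with 67.0, 75.3, 76.8 and 75.7 RPKM in *Hmga2*+/+ Ctrl, *Hmga2*+/+ TGFB1, *Hmga2*-/- Ctrl and *Hmga2*-/- TGFB1, the order of libraries kept for all values below. Its lowest value was the *Hmga2*+/+ Ctrl library, and the other 3 libraries lay close together. *Psma5* was the lowest in *Hmga2*+/+ Ctrl, with 14.1, 17.5, 13.9 and 15.7 RPKM, and its 2 TGFB1 libraries stood above its Ctrl libraries. *Psma3* had 25.7, 36.7, 29.3 and 39.4 RPKM, 1.43-fold higher under TGFB1 in *Hmga2*+/+ (log2 0.52, 95% exact interval from counting error 0.45 to 0.58) and 1.35-fold higher in *Hmga2*-/- MEF (0.43, 0.37 to 0.49). The opposite sign was seen for *Psma7*, with 17.5, 15.7, 17.0 and 16.7 RPKM, whose log2 change was -0.16 (-0.26 to -0.05) for *Hmga2*+/+ and -0.02 (-0.12 to 0.08) for *Hmga2*-/- MEF. Such intervals cover the counting of reads only and not the spread between cultures.

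In the beta ring the proteolytic subunits PSMB5 (chymotrypsin-like), PSMB6 (caspase-like) and PSMB7 (trypsin-like) were encoded by genes of unequal level. *Psmb6* (chr11:70525357-70527858, plus strand) was the highest of the ring in *Hmga2*+/+ Ctrl, with 45.2, 52.2, 49.6 and 49.1 RPKM. Its level was 1.15-fold higher under TGFB1 in *Hmga2*+/+ (log2 0.21, 0.13 to 0.28) and near Ctrl in *Hmga2*-/- MEF (-0.02, -0.09 to 0.06). *Psmb5* (chr14:54614120-54617995, minus strand) was the lowest, with 8.0, 9.49, 8.89 and 11.4 RPKM. Both of its TGFB1 libraries stood above its Ctrl libraries, by 1.19-fold in *Hmga2*+/+ (0.25, 0.05 to 0.44) and 1.28-fold in *Hmga2*-/- MEF (0.36, 0.18 to 0.54). *Psmb7* (chr2:38588046-38643906, minus strand) had 18.9, 26.8, 22.7 and 27.6 RPKM, 1.42-fold higher in *Hmga2*+/+ (0.51, 0.39 to 0.62) and 1.22-fold higher in *Hmga2*-/- MEF (0.28, 0.17 to 0.39). An annotated pseudogene copy exists for each of these 3 genes (2 copies for *Psmb6*), and reads from near-identical copies could be split between them by the authors' counting. Among the structural subunits of the ring, *Psmb1* had 35.7, 32.5, 35.4 and 36.4 RPKM, with its lowest value in the *Hmga2*+/+ TGFB1 library (-0.14, -0.23 to -0.05). The median log2 change of the 7 genes was 0.42 for *Hmga2*+/+ and 0.28 for *Hmga2*-/- MEF. At least 1.2-fold higher were 4 and 5 of them, and none passed 1.5-fold.

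Of the 3 core subunits of restricted tissues, 1 had at least 1 RPKM. *Psmb10* (chr8:105935728-105938392, minus strand), which encodes the immune counterpart of PSMB7, had 4.26, 1.82, 4.77 and 2.02 RPKM, from 300, 131, 339 and 144 reads. Both Ctrl libraries lay above both TGFB1 libraries. Its level under TGFB1 was 0.428 of Ctrl in *Hmga2*+/+ (log2 -1.22, -1.53 to -0.92) and 0.422 of Ctrl in *Hmga2*-/- MEF (-1.24, -1.54 to -0.96). Of the 35 members with at least 1 RPKM, *Psmb10* alone was past 1.5-fold downwards, in both genotypes. In bulk RNA, fewer cells that make a transcript and less of it per cell cannot be told apart. *Psma8*, which encodes an alpha subunit of testis, had 3, 4, 9 and 19 reads (0.031, 0.040, 0.091 and 0.191 RPKM), with the higher counts in the *Hmga2*-/- libraries. Under TGFB1 the *Hmga2*-/- library stood 4.77-fold above *Hmga2*+/+ in RPKM (log2 2.26, 0.67 to 4.27), at a level under 1 RPKM. *Psmb11* (chr14:54625310-54629556, plus strand), which encodes the beta subunit of the thymic cortex, had 5, 3, 4 and 2 reads, too few to show a difference.

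Set against their constitutive partners, all 3 immune subunit genes took a smaller share of their pair under TGFB1. *Psmb8*, which the rule leaves out, had 13.2, 6.39, 15.5 and 7.03 RPKM and made up 62.3, 40.2, 63.6 and 38.1% of the sum of *Psmb8* and *Psmb5*. The immune form was thus the higher of this pair in both Ctrl libraries and the lower in both TGFB1 libraries. A transcript of 108 bases, assigned to *Psmb5* by position, had 18.8 RPKM in *Hmga2*+/+ Ctrl, above *Psmb8*. The annotated gene *Mir686* overlaps *Psmb5* on its strand, and whether this short transcript belongs to *Psmb5* was not examined. *Psmb9*, also left out by the rule, had 4.71, 1.47, 4.67 and 1.10 RPKM, or 9.43, 2.74, 8.59 and 2.2% of the sum with *Psmb6*. *Psmb10* made up 18.4, 6.36, 17.4 and 6.80% of the sum with *Psmb7*. The log2 change under TGFB1 was -1.05 (-1.22 to -0.88) and -1.14 (-1.30 to -0.99) for *Psmb8* and -1.68 (-2.10 to -1.27) and -2.08 (-2.55 to -1.63) for *Psmb9*, in *Hmga2*+/+ and *Hmga2*-/- MEF.

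**Figure D3:**
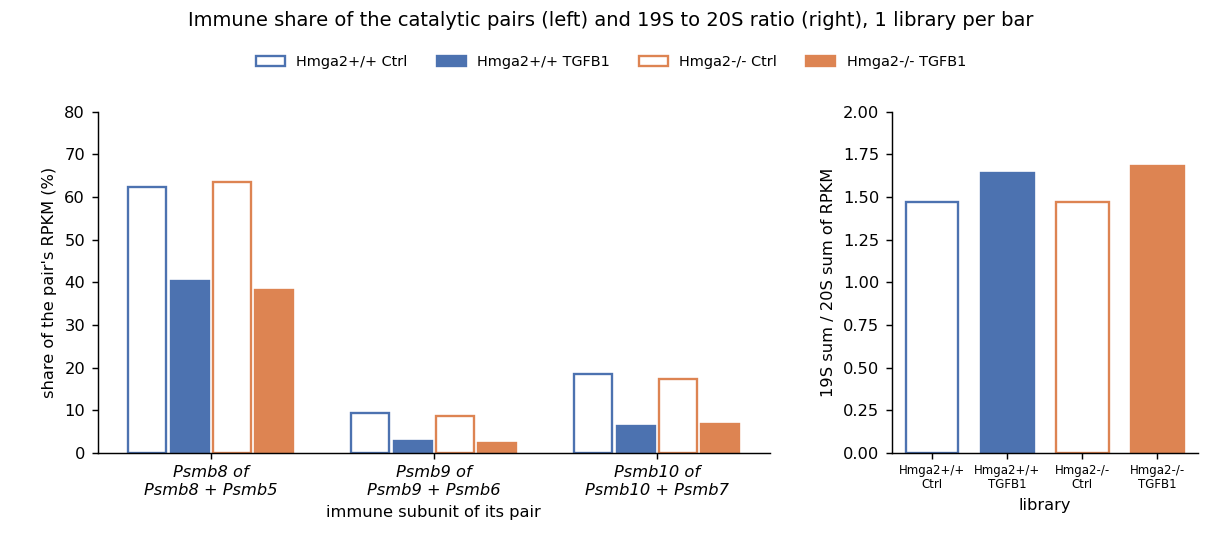
Left, percent of the summed RPKM of each catalytic pair that belongs to the immune subunit gene, and right, the summed RPKM of the 19S genes among the members divided by that of constitutive 20S genes, with 1 bar per library. The immune share is lower in both TGFB1 libraries for each pair (62.3 to 40.2% for *Psmb8* in *Hmga2*+/+ MEF), and the 19S to 20S ratio is 1.47 in both Ctrl libraries and 1.64 and 1.68 under TGFB1.

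The 6 ATPase genes of the base, whose products form the unfolding ring of the 19S particle, had a median log2 change of 0.46 for *Hmga2*+/+ and 0.44 for *Hmga2*-/- MEF, and 5 of 6 were higher by at least 1.2-fold in each. *Psmc6* (chr14:45329824-45349071, plus strand) was the highest of all members except in *Hmga2*-/- Ctrl, where *Psma4* was, with 70.7, 100.6, 73.2 and 112.5 RPKM. Its 2 TGFB1 libraries lay well above its Ctrl libraries, 1.42-fold in *Hmga2*+/+ (log2 0.51, 0.46 to 0.56) and 1.54-fold, past the limit, in *Hmga2*-/- MEF (0.62, 0.57 to 0.67). *Psmc4*, the lowest of the 6, had 17.1, 24.4, 18.1 and 24.6 RPKM, 1.43-fold higher in *Hmga2*+/+ (0.52, 0.43 to 0.60) and 1.35-fold higher in *Hmga2*-/- MEF (0.44, 0.35 to 0.52). With a shorter transcript of *Psmc4*, the one with the highest RPKM, these values were 0.68 and 0.58. The exception among the ATPases was *Psmc3*, with 29.3, 27.6, 33.2 and 30.0 RPKM, which lay slightly below Ctrl under TGFB1 in both genotypes (-0.09, -0.17 to -0.01, and -0.14, -0.22 to -0.07).

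Of the other genes of the base, *Psmd1* and *Psmd2* encode its scaffolds and *Psmd4* a receptor for ubiquitin chains. *Psmd4* was the highest, with 60.5, 74.5, 66.2 and 70.2 RPKM, 1.23-fold higher under TGFB1 in *Hmga2*+/+ (log2 0.30, 0.24 to 0.36) and 1.06-fold higher in *Hmga2*-/- MEF (0.08, 0.03 to 0.14). *Psmd1*, the lowest in *Hmga2*+/+ Ctrl, had 38.7, 54.2, 43.2 and 53.8 RPKM, with both TGFB1 libraries above both Ctrl libraries (0.48, 0.44 to 0.53, and 0.32, 0.27 to 0.36). *Psmd2* had 39.9, 48.2, 40.6 and 51.9 RPKM. The median log2 change of the 3 genes was 0.30 for *Hmga2*+/+ and 0.32 for *Hmga2*-/- MEF.

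All 8 lid genes were higher under TGFB1 in both genotypes, each with a counting interval above 0, as were the 3 non-ATPase genes of the base. Of all genes tested, 36.4% had an interval above 0 in *Hmga2*+/+ and 40.7% in *Hmga2*-/- MEF. The median log2 change of the lid genes was 0.42 for *Hmga2*+/+ and 0.45 for *Hmga2*-/- MEF, and 6 of 8 were higher by at least 1.2-fold in each. *Psmd14* (chr2:61711694-61800376, plus strand) encodes the metalloprotease of the lid that cuts ubiquitin chains from the substrate, and it overlaps the annotated gene *Gm25966* on its strand. It had 28.0, 45.7, 31.3 and 48.3 RPKM, so that the Ctrl and the TGFB1 libraries were widely apart, and was the member past 1.5-fold in both genotypes, at 1.63-fold in *Hmga2*+/+ (log2 0.71, 0.63 to 0.78) and 1.54-fold in *Hmga2*-/- MEF (0.62, 0.55 to 0.69). *Psmd8*, with 24.7, 36.9, 31.2 and 45.3 RPKM, lay just short of the limit, at 1.49-fold (0.58, 0.50 to 0.66) and 1.45-fold (0.54, 0.47 to 0.61). *Psmd6* was the highest lid gene in *Hmga2*+/+ Ctrl, with 33.3, 45.2, 34.1 and 48.7 RPKM, and was 1.36-fold higher in *Hmga2*+/+ (0.44, 0.37 to 0.52) and 1.43-fold higher in *Hmga2*-/- MEF (0.52, 0.44 to 0.59). The lowest, *Psmd3*, had 16.5, 19.3, 16.0 and 20.6 RPKM (0.23, 0.14 to 0.32, and 0.36, 0.28 to 0.45). *Psmd12* had 29.1, 39.3, 28.6 and 40.3 RPKM, 1.35- and 1.41-fold higher.

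Not all genes with a *Psmd* name encode subunits of the finished particle: *Psmd5*, *Psmd9* and *Psmd10* encode chaperones that help to assemble the base. Their median level in *Hmga2*+/+ Ctrl was 6.28 RPKM, and their median log2 change was -0.01 for *Hmga2*+/+ and 0.00 for *Hmga2*-/- MEF. *Psmd5*, the highest, had 13.9, 17.7, 14.9 and 19.6 RPKM, 1.27- and 1.32-fold higher under TGFB1. *Psmd9* had 6.28, 6.22, 6.37 and 6.38 RPKM, all within a narrow range. *Psmd10*, the lowest, had 4.80, 4.70, 5.86 and 4.76 RPKM, with the *Hmga2*-/- Ctrl library apart from the other 3, so that its log2 change was -0.03 (-0.24 to 0.18) for *Hmga2*+/+ and -0.30 (-0.50 to -0.11) for *Hmga2*-/- MEF.

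The 19S and 20S genes did not shift to the same extent. Summed RPKM of the 17 members of the 19S particle, without *Adrm1*, was 538.7, 709.7, 577.6 and 748.0, and that of the 14 constitutive 20S genes 366.4, 431.8, 393.0 and 444.4. Their ratio was 1.47 in both Ctrl libraries, 1.64 in *Hmga2*+/+ TGFB1 and 1.68 in *Hmga2*-/- TGFB1. The median log2 change was 0.43 and 0.40 for 19S genes and 0.27 and 0.28 for 20S genes in *Hmga2*+/+ and *Hmga2*-/- MEF. At least 1.2-fold higher were 14 and 13 of 17 genes of the 19S particle and 7 and 8 of 14 genes of the 20S core. Whether this difference exceeds the spread between cultures could not be tested. Within the core, the sum of the beta ring was 0.906, 0.948, 0.917 and 0.930 of that of the alpha ring.

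Genes that work with the particle were read from fixed lists, against the shares of all genes past 1.5-fold upwards (11.5% in *Hmga2*+/+, 13.1% in *Hmga2*-/- MEF) and downwards (16.6% and 15.1%). Of 4 measured genes of other subunits and associated proteins, 2 rose past 1.5-fold in each genotype: *Adrm1*, a ubiquitin receptor of the 19S particle, with 15.9, 24.8, 17.9 and 27.8 RPKM (1.56-fold in both), and *Uchl5*, a deubiquitinase that binds it, with 12.7, 19.3, 12.6 and 20.7 RPKM (1.52- and 1.64-fold). The activators split. *Psme3*, which encodes the nuclear activator PA28 gamma, had 12.2, 20.9, 12.8 and 21.9 RPKM (1.72- and 1.71-fold higher), whereas *Psme1*, which encodes an interferon-inducible PA28 subunit, had 162.2, 118.8, 203.3 and 110.3 RPKM and stood at 0.732 of Ctrl in *Hmga2*+/+ and, past the limit, 0.543 in *Hmga2*-/- MEF. Its partner *Psme2* had 37.2, 26.9, 35.6 and 23.8 RPKM. None of the 5 chaperones of core assembly passed 1.5-fold, and their median log2 change was 0.29 and 0.26.

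Among 7 regulators of subunit transcription, *Nfe2l1* had 27.3, 33.0, 24.4 and 32.2 RPKM, 1.21- and 1.32-fold higher under TGFB1, and *Nfe2l2*, which encodes a regulator of antioxidant genes, had 22.2, 20.5, 24.2 and 21.0 RPKM, 0.922 and 0.867 of Ctrl. *Ngly1*, whose product removes sugars from NFE2L1, had 4.16, 2.62, 4.02 and 2.71 RPKM, 0.630 of Ctrl and past the limit in *Hmga2*+/+ and 0.675 in *Hmga2*-/- MEF. The median of the 7 was 0.02 and 0.19. In the list of ubiquitin supply and shuttles, 13 genes were measured, and 1 in *Hmga2*+/+ and 3 in *Hmga2*-/- MEF were past 1.5-fold upwards, too few to set this list apart from the 11.5% and 13.1% of all genes. They were *Rad23b*, a shuttle for ubiquitinated proteins, in both genotypes (23.6, 39.5, 27.9 and 45.8 RPKM, 1.68- and 1.64-fold), and the shuttles *Ubqln1* (1.42- and 1.61-fold) and *Ubqln4* (1.42- and 1.55-fold) in *Hmga2*-/- MEF.

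The genes that share the interferon-inducible program with *Psmb8* to *Psmb10* were lower. Of 8 antigen processing genes 4 fell past 1.5-fold in *Hmga2*+/+ and 3 in *Hmga2*-/- MEF, 6 were lower by at least 1.2-fold in each, and none was higher. *Tap2*, a subunit of the peptide transporter, had 11.2, 4.97, 11.3 and 5.51 RPKM (0.444 and 0.490 of Ctrl). The transcription factor *Irf1* had 13.1, 8.24, 15.3 and 8.02 RPKM, and *Nlrc5*, a regulator of MHC class I genes, had 7.77, 4.96, 8.02 and 4.12 RPKM. *Tapbp* stood at 0.618 and 0.677 of Ctrl. Together with *Psmb8*, *Psmb9*, *Psmb10*, *Psme1* and *Psme2*, the 13 genes had a median log2 change of -0.65 for *Hmga2*+/+ and -0.88 for *Hmga2*-/- MEF.

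Other large complexes were taken for comparison by counts and medians. The chaperonin CCT, which folds actin and tubulin, had 7 measured genes, all higher by at least 1.2-fold in both genotypes, with median log2 changes of 0.69 and 0.72 and sums of 402.1, 666.5, 458.5 and 727.9 RPKM. Past 1.5-fold were 6 of them in *Hmga2*+/+ and 4 in *Hmga2*-/- MEF, *Cct2* with 81.5, 155.1, 96.9 and 173.0 RPKM being the most shifted. Of 76 cytosolic ribosomal protein genes 29 and 28 were higher by at least 1.2-fold, with medians of 0.18 and 0.19. Of 45 complex I genes 1 and 5 were, with medians of -0.16 and -0.13. The members, with 22 of 35 in each genotype, thus lay between the chaperonin and the ribosomal protein genes, although no test of these differences could be made.

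**Figure D4:**
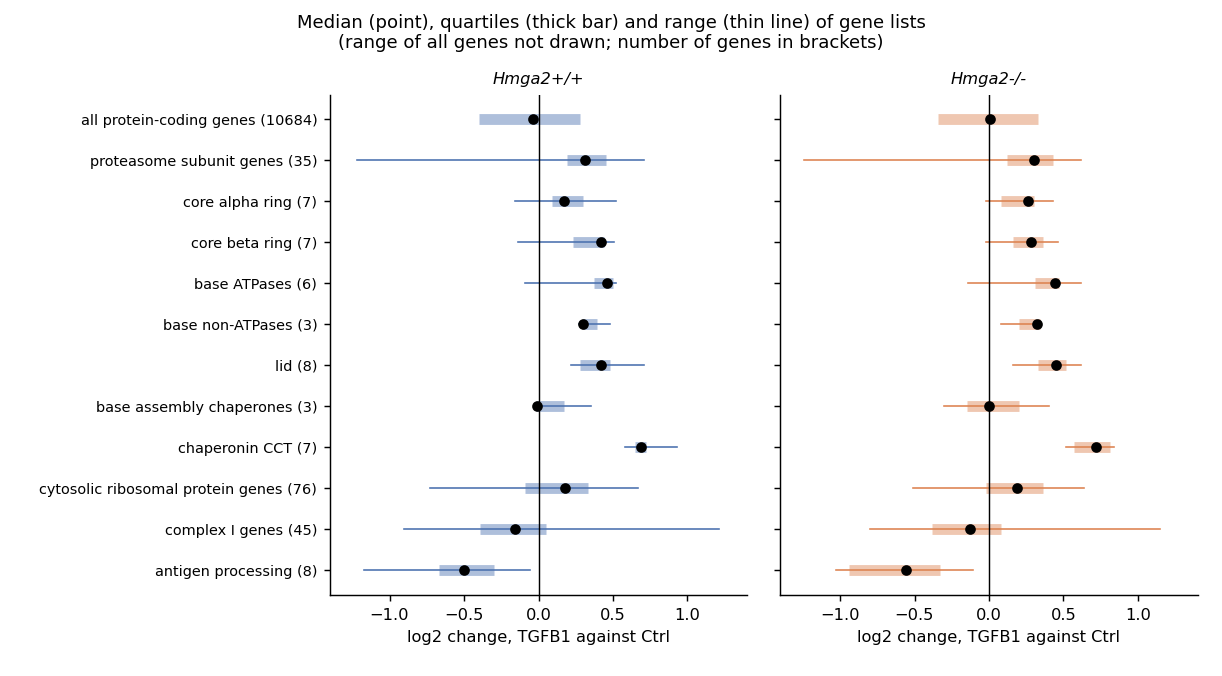
Log2 change under TGFB1 in *Hmga2*+/+ (left) and *Hmga2*-/- MEF (right) of gene lists, with the median as a point, the quartiles as a thick bar and the range as a thin line, which is not drawn for all protein-coding genes. The median of the members is 0.31 and 0.30, that of the chaperonin CCT 0.69 and 0.72 and that of antigen processing -0.50 and -0.56.

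The comparison of genotypes asked whether subunit genes stood differently without *Hmga2*. In Ctrl no member passed 1.5-fold in either direction, beside 2.28% of all genes upwards and 1.65% downwards. By at least 1.2-fold 3 members were higher in *Hmga2*-/- MEF, beside 9.19% of all genes, and 0 were lower, beside 10.5%. Most members lay slightly above: 27 of 35 were higher, beside 46.3% of all genes, with a median log2 difference of 0.09 beside -0.02 over all genes. The 3 were *Psmd8* (1.26-fold, log2 0.34, 0.26 to 0.42), *Psmd10* (1.22-fold, 0.29, 0.09 to 0.48) and *Psmb7* (1.2-fold, 0.27, 0.14 to 0.39). The lowest differences were those of *Psma7* (-0.05, -0.15 to 0.06), *Psmd3* (-0.05, -0.14 to 0.05) and *Psmd12* (-0.02, -0.10 to 0.05), none of them detectable at this depth.

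Under TGFB1 no member passed 1.5-fold between genotypes either, beside 3.03% of all genes upwards and 1.97% downwards. At least 1.2-fold higher in *Hmga2*-/- MEF were 2 members, beside 12.8% of all genes, and 0 were lower, beside 8.33%. Higher by any amount were 28 of 35, beside 58.4% of all genes, with a median log2 difference of 0.08 beside 0.04 over all genes. The median of the members was 0.05 with rescaled libraries, where 24 of 35 were higher beside 51.5% of all genes, and 0.04, equal to that of all genes, with the transcript of highest mean RPKM. *Psmd8* again stood highest (1.23-fold, log2 0.30, 0.23 to 0.36), followed by *Psmb5* (1.2-fold, 0.27, 0.09 to 0.45) and *Psma2* (1.18-fold, 0.24, 0.11 to 0.38), an alpha subunit with 14.3, 15.2, 14.6 and 18.0 RPKM. *Psmb5* was near 0 with its transcript of highest mean RPKM, the one of 108 bases assigned by position, which left 1 member at 1.2-fold. Lowest were *Psma5* (0.897-fold, -0.16, -0.28 to -0.04), *Psmb6* (-0.09, -0.16 to -0.01) and *Psmd4* (-0.09, -0.14 to -0.03). *Psmb10* differed little between genotypes in Ctrl (0.16, -0.06 to 0.39) or under TGFB1 (0.15, -0.21 to 0.50), within its counting error.

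**Figure D5:**
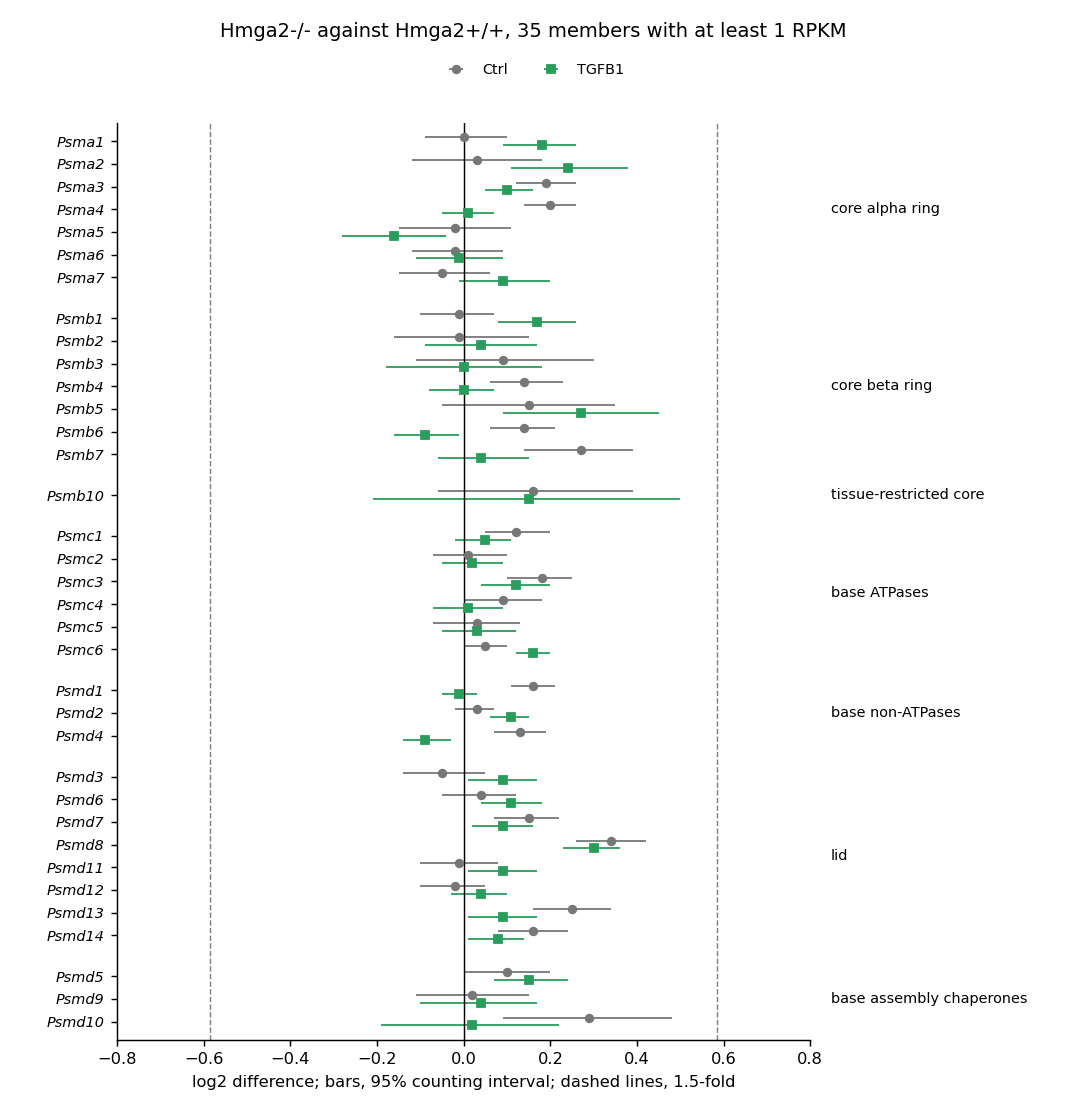
Log2 difference of *Hmga2*-/- against *Hmga2*+/+ MEF for the 35 members in Ctrl (circles) and under TGFB1 (squares), with exact 95% intervals for counting error and dashed lines at 1.5-fold. All points lie between -0.16 and 0.34, well inside the dashed lines.

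The TGFB1 response itself was set between genotypes, as the log2 change in *Hmga2*-/- minus that in *Hmga2*+/+ MEF. Its median over the members was -0.02, beside 0.05 over all genes. No member was higher by at least 1.2-fold in *Hmga2*-/- MEF, beside 15.5% of all genes, and 1, *Psmd10*, was lower, beside 8.24% (log2 -0.27, 95% counting interval from the delta method -0.55 to 0.01). *Psmb7* (-0.22, -0.38 to -0.07), *Psmb6* (-0.22, -0.33 to -0.12) and *Psmd4* (-0.22, -0.30 to -0.14) followed, close together. At the other end were *Psma2* (0.21, 0.02 to 0.41), *Psmb1* (0.18, 0.06 to 0.31) and *Psma1* (0.17, 0.05 to 0.30), which had 26.8, 28.4, 26.9 and 32.1 RPKM. For *Psmd14* the difference was -0.08 and for *Psmb10* -0.02 (-0.43 to 0.39).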

How the data were processed

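Total RNA of 4 libraries, 1 per condition, was sequenced with a stranded kit. By the paper's methods the authors used Trimmomatic for trimming, aligned to mm10 by HISAT2 2.1.0 and counted them over UCSC known genes on the annotated strand with HOMER, and they deposited RPKM rounded to 3 decimals. The header of the table names exons as the counted feature and the methods name genes. The paper speaks of duplicates of one experiment, the table has 1 column per condition, and whether duplicates were pooled is not stated. The other deposited value used is the length of each transcript, and 0 per-sample columns were left unused.

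From the RPKM, mapped reads per library were derived as the depth at which low values give whole reads (100% of 1056 to 1077 values within 0.1 of a read). Reads gave exact Clopper-Pearson 95% intervals, and a delta method gave those of differences of responses. As there were no replicates and the values are RPKM, no count test was run. Names came from GENCODE vM21 genes that covered 50% or more of a transcript on its strand (57708 of 63759 transcripts), and the transcript with the longest gene body stood for each gene. As in the study, 0 RPKM was set to 0.001 and the limit was 1.5-fold, with 1.2-fold added. Genes needed at least 1 RPKM in at least 1 library. Members had 1 to 5 transcripts in the table (17 with 1), and 7 (*Psmb5*, *Psmb7*, *Psmc5*, *Psmd1*, *Psmd12*, *Psmd13*, *Psmd14*) overlap another gene on their strand, whose reads cannot be separated.

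The members and lists were chosen with earlier results of these data known. Named were members past 1.5-fold, the catalytic and tissue-restricted subunits, and the highest and lowest of each group in *Hmga2*+/+ Ctrl. Also named were the 3 most shifted in each direction of each comparison. So were genes of the pathway lists past 1.5-fold, with *Psmb8*, *Psmb9*, *Nfe2l1* and *Nfe2l2*. Of the chaperonin genes past 1.5-fold, however, only *Cct2*, the most shifted, was named. *Psma6*, *Psmd2*, *Psmd9* and *Psme2* were added after their values were seen. Listed names AI314180, Ecm29, Shfm1, Ufd1l and Cct6a matched no gene. Alternatives changed the scaling, the pseudocount, the transcript, the filter and the fold limit. Python 3.11.15, numpy 2.4.6, pandas 2.3.3, scipy 1.17.1 and matplotlib 3.10.9 were used, and the steps were tested on simulated data.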

Additional observations from a re-analysis of the deposited data

How the results depend on the processing

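With 1 library per condition, the spread between cultures is unknown and no paired analysis was possible because no condition had a second library. The counts past a fold limit depended on that limit. At 1.2-fold, 22 members were higher under TGFB1 in each genotype, 2 were lower in *Hmga2*-/- MEF, 3 and 2 were higher in *Hmga2*-/- MEF in Ctrl and under TGFB1, and 1 had a smaller response in *Hmga2*-/- MEF. At 2-fold, 0 were higher under TGFB1 in either genotype. Libraries rescaled by the median ratio, which shifted the comparisons by -0.02 to 0.05 on the log2 scale, put 2 members past 1.5-fold upwards in *Hmga2*+/+ MEF in place of 1, *Psmd8* being at 0.60. Rescaling also left 11 members in place of 17 with a larger response in *Hmga2*-/- MEF. Before rescaling 59.3% of all genes had a larger response there, and their share after it was not counted. With the transcript of highest mean RPKM the first count was also 2, through *Psmc4* at 0.68. Without a filter on low RPKM, *Psma8* and *Psmb11* entered, so that 2 members were lower under TGFB1 past 1.5-fold in each genotype, and 1 was higher in *Hmga2*-/- MEF in Ctrl, 1 under TGFB1 and 1 in the response. The shares of all genes without this filter were not counted. With a pseudocount of 1 RPKM *Psmb10* changed by -0.90 and -0.94. With rescaled libraries, 23 members in *Hmga2*+/+ and 19 in *Hmga2*-/- MEF were higher under TGFB1 by at least 1.2-fold, beside 27.6% of all genes in each. With the transcript of highest mean RPKM these counts were 23 and 21, beside 26.4% and 29.6% of all genes. Of 420 values of named genes under alternatives, 414 stayed within their counting interval. Rescaling changed the sign of 11 of 140 gene values, and the choice of transcript that of 2.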

Other observations

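Most members had further transcripts in the table, which share exons and therefore reads. For *Psmb5*, with 3 transcripts, the log2 change under TGFB1 ranged from 0.22 to 0.48 in *Hmga2*+/+ and from 0.21 to 0.38 in *Hmga2*-/- MEF. The value of 0.48 belonged to the transcript of 108 bases, which was assigned to *Psmb5* by position where *Mir686* is also annotated. For *Psmd10* the 2 transcripts had -0.40 and -0.30 in *Hmga2*-/- MEF. Levels also depended on the transcript: in *Hmga2*+/+ Ctrl, *Psma7* had 17.5 RPKM for the longest gene body and 28.7 RPKM for the transcript of highest mean, and *Psma6* had 26.8 and 43.1 RPKM.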
